A study of Danio rerio with 85 samples.

Results

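The genes described here are 7 zebrafish genes that are switched on as cells become neurons, namely *elavl3*, *elavl4*, *stmn1b*, *gap43*, *tubb5*, *snap25a* and *snap25b*. They were listed by name and matched to 1 Ensembl identifier each. All 7 are among the 30029 genes of the whole embryo tables, and 6 are among the 6877 genes of the youngest hearts, at 1 dpf, where *snap25b* has no row. In the older hearts all 7 are present, among 11033 genes (2 dpf) and 11221 genes (3 dpf). The study compared embryos without functional Rnf2, the catalytic subunit of Polycomb repressive complex 1 (PRC1), with wildtype embryos by sequencing RNA from whole embryos at 3 dpf and, with Single Hearts RNA-seq, from hearts aged 1, 2 and 3 dpf. ChIP-seq of the series was not used here.

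The whole embryo groups were 7 libraries of homozygous *rnf2* mutants in a TU/TLF mixed background and 8 libraries of wildtype embryos of the strain TLF, each library made from a pool of embryos. Mutant embryos had been sorted by phenotype from crosses of heterozygous parents, whereas the controls came from a wildtype strain, which the study's methods give the same background as the mutants. The labels name different strains for the groups, so that genotype and labelled strain cannot be told apart. The hearts were labelled *myl7*:GFP *rnf2*-/- (8, 9 and 9 hearts at the ages of 1, 2 and 3 dpf) and *myl7*:GFP *rnf2*+/+ (9, 13 and 10 hearts), all in a TU/TLF mixed background. They carried a green fluorescent reporter driven by the promoter of the cardiomyocyte gene *myl7*, and each library was 1 dissected heart.

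PRC1 places ubiquitin on histone H2A and, together with PRC2, keeps developmental genes silent in cells where they do not belong. Neuronal differentiation is read in zebrafish embryos from genes such as these, which fall into 3 groups by their role. *elavl3* and *elavl4* encode the Hu proteins HuC and HuD, which bind RNA in postmitotic neurons. *stmn1b*, *gap43* and *tubb5* encode proteins of the growing axon, namely a stathmin that binds tubulin, a membrane protein of the growth cone and a β-tubulin of microtubules. *snap25a* and *snap25b* encode the 2 zebrafish copies of SNAP-25, a SNARE protein that drives the fusion of synaptic vesicles.

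The whole embryo libraries held 6251467 to 11036762 reads in mutants (median 7456006) and 4711185 to 12585927 reads in wildtypes (median 9762416). The hearts were far shallower, and were counted in UMIs (unique molecular identifiers, which count molecules). At 1 dpf the median was 11178.5 UMIs in mutant and 8309 in wildtype hearts, at 2 dpf 76771 in mutants and 39204 in wildtypes, and at 3 dpf 64280 in mutants and 39780 in wildtypes. The *rnf2* transcript itself was at 117 to 153 normalized counts in mutant and 497 to 699 in wildtype whole embryos (log2 fold change −2.08), and in hearts it passed the test at 2 dpf only (log2 fold change −1.56, adjusted p = 2.7e-04 in limma). At 3 dpf it did not pass (log2 fold change −1.32, adjusted p = 0.016 in limma), and *rnf2* UMIs were found in 5 of 9 mutant and 8 of 10 wildtype hearts of that age. *myl7* was detected in every heart, at 35.3 normalized counts or more, so that the labelled tissue carried its defining marker. The lowest value was that of a mutant heart of 1 dpf, a group with a median of 120. Presence of the marker does not show how much other tissue a heart sample held.

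In whole embryos the 7 genes did not move as 1 group. *elavl3*, *elavl4* and *stmn1b* were 34.5%, 24.6% and 23.7% higher in mutants, *tubb5* and *gap43* were lower by 46.3% and 37.5%, and *snap25a* and *snap25b* did not pass the test. The values are normalized counts, that is reads divided by a size factor of the library. The test was limma's on log2(normalized count + 1) at an adjusted p (Benjamini-Hochberg) of 0.1 or less, and all fold changes are on that scale. It had no covariate for the batch effect that the study removed with RUVSeq in its own analysis. By this test 5 of the 7 genes were called, 3 up and 2 down, where 56% of the 22685 genes tested were called, 28.7% up and 27.3% down. Summed over the 7 genes, the mutant libraries had 10330 to 12300 normalized counts (median 11610) and the wildtype libraries 10420 to 13400 (median 11860). In RNA of whole embryos, fewer cells of a type and less RNA per cell cannot be told apart. None of the 7 changes was shown to be larger than 2-fold by limma's treat test against a log2 fold change of 1 (adjusted p = 1 for each), which 1.91% of all genes passed.

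**Figure D1:**
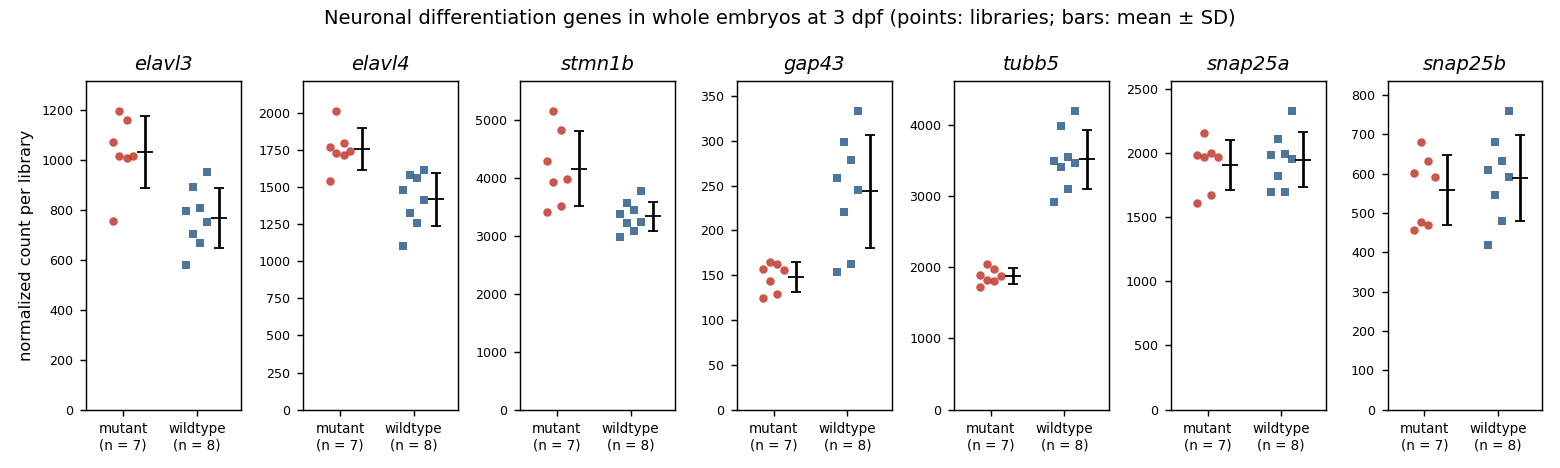
Normalized counts of the 7 genes (y axes, each from 0) in whole embryo libraries at 3 dpf, with mutants (n = 7, red circles) left of wildtypes (n = 8, blue squares) and the mean ± SD as a bar. The mutants of *tubb5* lie at 1722 to 2048, all below the wildtypes at 2910 to 4191, and *snap25a* and *snap25b* overlap widely.

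Of the Hu proteins, *elavl3* had 755, 1016 and 1197 normalized counts in mutants as the lowest, median and highest library, against 581, 773 and 951 in wildtypes. Mutant libraries were the higher ones, with 6 of 7 above every wildtype library and only replicate 6 inside the wildtype range. The log2 fold change was 0.43 ± 0.10 (SE, adjusted p = 0.0018 in limma).

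*elavl4* showed the same picture, with 1537, 1741 and 2011 normalized counts in mutants and 1101, 1445 and 1612 in wildtypes. Again 6 of 7 mutant libraries lay above all wildtypes and replicate 6 overlapped. The log2 fold change was 0.32 ± 0.08 (SE, adjusted p = 0.0025 in limma). The log2 ratio of *elavl3* to *elavl4* differed between mutants and wildtypes by 0.11 (95% confidence interval −0.041 to 0.26), which the two-sided exact permutation test did not separate from 0 (p = 0.14, adjusted p = 0.28 over the 2 ratios compared).

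Of the axon genes, *stmn1b* had 3421, 3990 and 5165 normalized counts in mutants, against 2990, 3314 and 3778 in wildtypes. In 5 of 7 mutant libraries it was above every wildtype, the other two being within the wildtype range, and the spread among mutants was the wider one. The log2 fold change was 0.31 ± 0.08 (SE, adjusted p = 0.0050 in limma).

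*gap43* went the other way, with 124, 156 and 165 normalized counts in mutants and 154, 252 and 333 in wildtypes. The 7 mutant libraries were close together, and they met the wildtype range only at its low end, where wildtype replicates 1 (154) and 11 (162) lay. The log2 fold change was −0.68 ± 0.14 (SE, adjusted p = 5.5e-04 in limma).

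*tubb5* had 1722, 1873 and 2048 normalized counts in mutants, against 2910, 3478 and 4191 in wildtypes. It is the only one of the 7 whose groups did not overlap, with every mutant below every wildtype library, as 9.55% of all genes tested were, while 6.98% had every mutant above every wildtype. The log2 fold change was −0.90 ± 0.07 (SE, adjusted p = 4.8e-09 in limma). Its 95% confidence interval ran from −1.05 to −0.75.

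The synaptic pair was close to level. *snap25a* had 1612, 1969 and 2151 normalized counts in mutants and 1693, 1969 and 2326 in wildtypes, with a log2 fold change of −0.03 (95% confidence interval −0.19 to 0.13, adjusted p = 0.78 in limma). *snap25b* had 458, 591 and 682 in mutants and 419, 601 and 760 in wildtypes, with a log2 fold change of −0.07 (−0.31 to 0.17, adjusted p = 0.63 in limma). Mutant and wildtype libraries overlapped over nearly their whole ranges for both copies, and the intervals reach as far as −0.31 on the log2 scale. In the 8 libraries whose numbers occur in both genotypes, *snap25b* was at −0.24, which passed with the number as a block (adjusted p = 0.081 in limma) and did not without it (adjusted p = 0.21). The ratio of *snap25a* to *snap25b* differed by 0.042 between genotypes on the log2 scale (−0.19 to 0.27, two-sided exact permutation test, p = 0.69).

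The numbers of the wildtype libraries fall into 2 runs in the labels, 1 to 5 and 11 to 13. *tubb5* was at 2910 to 4191 in the first run and 3098 to 3489 in the second, and *elavl4* at 1101 to 1612 and 1255 to 1580, and the mutant medians lay on the same side of both runs. *stmn1b* had a median of 3451 in the first run and 3224 in the second. With the first run as the only wildtypes, the same 5 genes passed. Within a genotype the genes moved together to differing degrees. After centring each gene on the mean of its genotype, Pearson's r over the 15 libraries was 0.83 for *gap43* with *tubb5* and 0.80 for *elavl3* with *elavl4*, whereas *stmn1b* had r of −0.23 with *elavl3* and −0.22 with *gap43*. Over all 21 pairs the median was 0.23, and r was positive in 17 of them. These correlations describe libraries that share a size factor and carry no test. Mutant replicate 6 had the lowest *elavl3*, *elavl4* and *gap43* and the highest *stmn1b* and *snap25b* of the mutants, and wildtype replicate 1 had the lowest *elavl3*, *elavl4*, *gap43* and *tubb5* of the wildtypes.

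The genes whose values followed the mean profile of the 7 most closely within genotypes, by Pearson's r over the 15 libraries and among 15327 genes, were *tfap2b* (r = 0.93), *CABZ01031290.1* (0.92), *celf3a* (0.90), *meis2b* (0.90) and *spock2* (0.90). They were picked as the highest values and carry no test. With a median r of 0.23 among pairs of the 7, they need not follow each of the 7. *tfap2b* and *meis2b* encode transcription factors and *celf3a* an RNA-binding protein of the CELF family. Between genotypes *meis2b*, *spock2* and *celf3a* were higher in mutants (log2 fold changes 0.54, 0.43 and 0.31), where 28.7% of all genes rose. *tfap2b* (0.11, adjusted p = 0.38 in limma) and *CABZ01031290.1* (0.22, adjusted p = 0.12 in limma) did not pass.

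**Figure D2:**
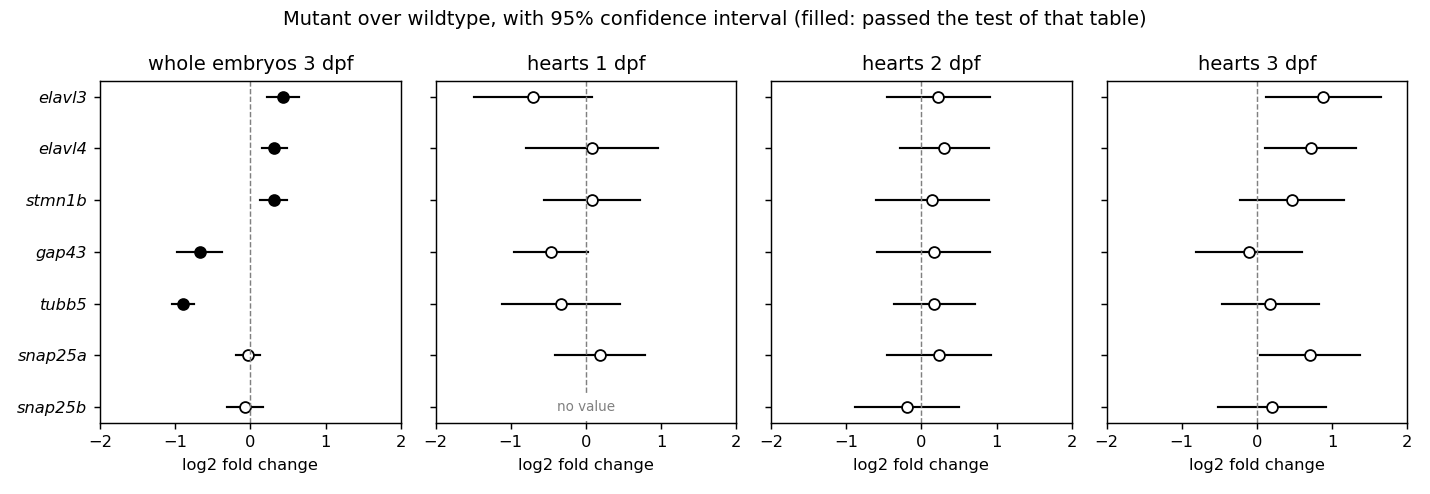
Log2 fold change of each of the 7 genes, mutant over wildtype (x axes), with its 95% confidence interval, in whole embryos at 3 dpf and in hearts at 1, 2 and 3 dpf. Filled points passed the test of their table, which are the 5 genes in whole embryos; all heart intervals are wider, and *snap25b* has no value at 1 dpf.

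The other genes of the pathway were read from lists of neural genes, each to be set against the 28.7% of all genes that rose and the 27.3% that fell. Among further genes expressed in most neurons, 14 of 19 fell and 1 rose, with a median log2 fold change of −0.46 against 0.03 over all genes. The largest decreases were those of the neurofilaments *nefmb* (log2 fold change −1.15, mutant mean 36.5 ± 11.3 and wildtype mean 81.2 ± 20.9 normalized counts, SD) and *nefma* (−0.92) and of the sodium pump subunit *atp1a3b* (−0.88). The gene that rose was *nova2*, a splicing factor of neurons (0.52, adjusted p = 9.4e-06 in limma).

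Axon growth genes went mostly up, with 7 of 13 risen, 3 fallen and a median log2 fold change of 0.31. The cell adhesion molecules *cntn2* and *l1camb* and the guidance receptor *robo2* led the increases (log2 fold changes 0.97, 0.60 and 0.93). *cntn2* had 718 ± 115 normalized counts in mutants and 364 ± 36.1 in wildtypes (SD, n = 7 and 8). The decreases were those of *dpysl5a* (−0.74), *map1b* (−0.63) and *maptb* (−0.40), whose products act on microtubules. Thus *stmn1b* shared its direction with the larger share of this list, and *gap43* and *tubb5* with the smaller.

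Of 12 genes of transmitter release, the process in which the *snap25* pair acts, 4 fell (*syt1b*, −0.63; *rab3ab*, −0.52; *sypb*, −0.37; *vamp2*, −0.29) and 0 rose, with 8 not passing and a median of −0.12. The share that fell was close to the 27.3% over all genes. *syt1b*, a calcium sensor of vesicle fusion, was scarce, at means of 11.2 normalized counts in mutants and 17.96 in wildtypes. Under 3 of the other settings, and when any one of 4 libraries was left out, 1 gene of this list was called up.

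Genes of earlier stages were also mixed. Of 14 neural progenitor genes 6 rose, led by *sox19b* (1.102), the intermediate filament gene of radial glia *gfap* (1.06, means of 5200 ± 747 in mutants and 2537 ± 622 in wildtypes, SD) and *fabp7a* (0.49), while the Notch effectors *her4.1* (−0.50) and *her6* (−0.38) fell. Of 12 proneural and early neuronal transcription factors 3 rose and 5 fell, the first of these close to the 28.7% of all genes that rose. *phox2a* and *phox2bb*, factors of hindbrain and autonomic neurons, were at 1.12 and 1.01, *isl1* at 0.31, and the factors with the largest decreases were *isl2b* (−0.80), *ascl1a* (−0.43) and *neurod4* (−0.38).

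Among relatives of the 7 genes, 3 of 15 rose and 8 fell. The β-tubulins were *tubb2b* (−1.07, means of 3681 ± 630 in mutants and 7696 ± 632 in wildtypes, SD), *tubb4b* (−0.42) and *tubb6* (−0.51), which fell with *tubb5*, and *tubb1*, which rose (1.21) but was low, at means of 28.3 and 12.8 normalized counts. The stathmins diverged, with *stmn4l* up (1.24) and *stmn1a* and *stmn2a* down (−0.997 and −0.57). *stmn1a*, the other stathmin 1 gene of the zebrafish, had 404 ± 32.3 normalized counts in mutants and 806.5 ± 57.5 in wildtypes (SD). *snap23.2*, a relative of SNAP-25 that acts outside neurons as well, was at 1.03. It was low too, at means of 34.6 normalized counts in mutants and 15.9 in wildtypes. Genes of these families are similar in sequence, and the gene counts of STAR leave out reads that map to several places, so that reads shared by near-identical copies were not counted.

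Of the other lists, glial genes were divided (3 of 7 up, 2 down), with the glutamate transporter gene *slc1a2b* at 1.28, *plp1b* at 0.70 and *slc1a3b* at 0.30, and the myelin genes *mbpa* at −0.98 and *plp1a* at −0.37. Of 5 repressors of neuronal genes, *ptbp1a* (−0.44), *ptbp1b* (−0.28) and *rcor1* (−0.27) fell, and *rest*, which silences neuronal genes outside the nervous system, did not pass (0.14, adjusted p = 0.41 in limma). Markers of some other tissues differed too. Of cardiomyocyte genes 8 of 9 fell (median −0.81), while their summed level, 46890 to 79540 in mutants (median 69830) and 46400 to 98450 in wildtypes (median 63370), overlapped. To that sum *myl7*, *nppa* and *cmlc1* added wildtype means of only 264, 117 and 103, so that it rests on other genes of the list and says little about these. Of erythrocyte genes 4 of 5 rose (median 1.08, summed level 10960 to 18660 in mutants and 3272 to 10110 in wildtypes), and of epidermis genes 3 of 5 rose (median 0.47). Yolk and liver genes fell in 3 of 5 cases (median −0.34), and of 8 skeletal muscle genes 1 rose and 1 fell (median −0.04). The part of such shifts between tissues in the values of the 7 genes was not tested.

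**Figure D3:**
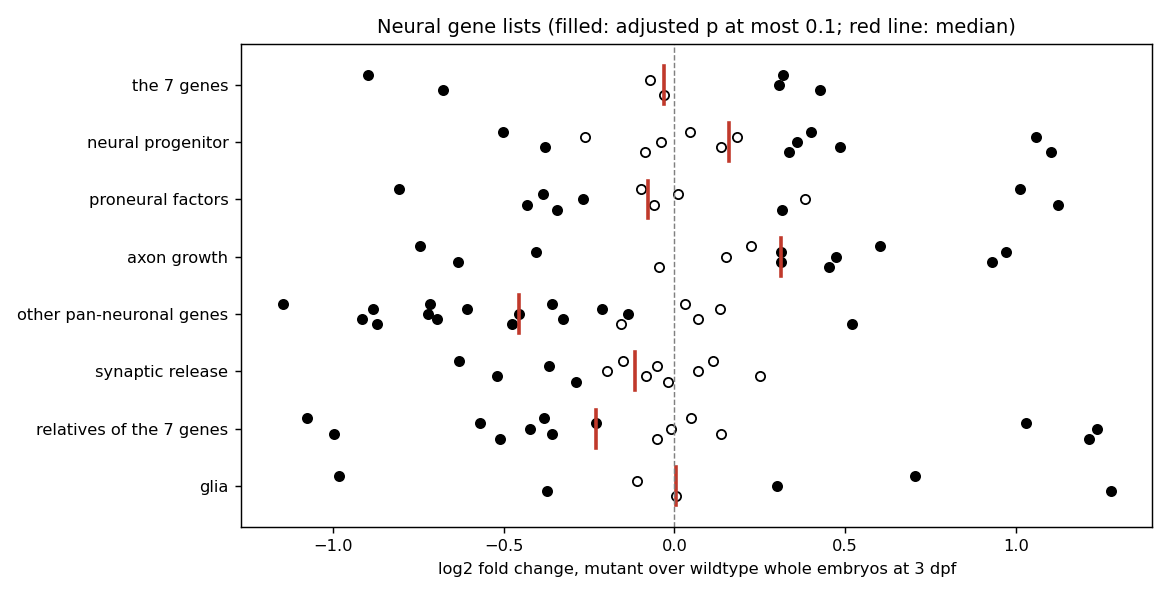
Log2 fold changes of the 7 genes and of the genes in 7 neural lists (rows), mutant over wildtype whole embryos at 3 dpf (x axis). Filled points had an adjusted p of at most 0.1 and red lines are medians, which run from −0.46 for other pan-neuronal genes to 0.31 for axon growth genes.

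In single hearts the 7 genes were scarce, and none of them differed between genotypes at any age by the test used for hearts (limma on log2(normalized count + 1), adjusted p under 0.01). At 1 dpf 0 of 6 were called where 0.0872% of all genes were, at 2 dpf 0 of 7 against 0.634%, and at 3 dpf 0 of 7 against 5.36%. At an unadjusted p under 0.05 there were 0, 0 and 3, and edgeR and DESeq2 on the recovered UMIs called 0 at each age. The share of all genes under that unadjusted threshold was not computed, so the 3 cannot be called many or few. Heart values are UMIs divided by a size factor of the heart, and each age was normalized separately.

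At 1 dpf the 6 genes measured had together 0 to 24 UMIs per mutant heart (median 4.5) and 0 to 38 per wildtype heart (median 7). *elavl3* had 0, 0 and 1.47 normalized counts as the lowest, median and highest in mutants and 0, 0.97 and 6.42 in wildtypes, from 6 and 21 UMIs in all, and *gap43* came from 2 UMIs in mutants and 7 in wildtypes. Most hearts of both genotypes lay at or near 0. Mutant replicate 3 ranked 1st for the sum of the 6 genes (19.1 normalized counts) and 17th, the last, for cardiomyocyte genes (113). It also ranked 1st for the pan-neuronal, axon growth, proneural and glial sums, 3rd for synaptic release and 5th for neural progenitor genes. The log2 fold changes ran from −0.71 ± 0.40 for *elavl3* to 0.19 ± 0.30 for *snap25a* (SE), each within a confidence interval that included 0.

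At 2 dpf the genes were better seen, with 8 to 209 UMIs per mutant heart (median 30) and 3 to 101 per wildtype heart (median 17). *elavl4* had 1.91, 8.82 and 34.96 normalized counts in mutants and 1.15, 6.31 and 19.6 in wildtypes, and *tubb5* had 2.19, 7.35 and 25.1 in mutants and 2.19, 7.60 and 22.4 in wildtypes. Both were found in every heart, and the genotypes overlapped. *elavl3* had 0, 4.55 and 26.8 in mutants and 0.95, 2.37 and 14.97 in wildtypes. The highest mutant value of each of the 7 genes came from the same heart, replicate 31.

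In that heart the 7 genes summed to 114 normalized counts, against 7.64 to 50.8 in the other mutant hearts. It also ranked first of the 22 hearts for the sums of the other pan-neuronal genes, the axon growth genes, the synaptic release genes and the neural progenitor genes, and it ranked 20th for cardiomyocyte genes. Its high ranks were not only neural, with 2nd for yolk and liver and 3rd for epidermis beside 2nd for proneural and glial genes. Mutant replicate 29 and wildtype replicate 4 ranked 3rd and 2nd for the 7 genes, and 22nd and 21st for cardiomyocyte genes. Replicate 31 held 92869 UMIs, replicate 29 held 109942 and wildtype replicate 4 held 81685, against medians of 76771 in mutants and 39204 in wildtypes. Wildtype replicate 2, which ranked 1st for cardiomyocyte genes, held the fewest at this age (23523). The 4 bases of the UMI limit the count of a gene in 1 heart, and every heart of this age had a gene at that limit. The part of depth and of this limit in the cardiomyocyte ranks was not tested. All log2 fold changes at this age lay between −0.19 (*snap25b*) and 0.31 (*elavl4*). Without replicate 31, those of *elavl3*, *gap43*, *stmn1b*, *snap25a* and *tubb5* turned to between −0.11 and −0.03, and *elavl4* was at 0.05. With a covariate for how many genes each heart had above 0, all but *snap25b* turned to between −0.65 (*tubb5*) and −0.29 (*elavl4*).

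**Figure D4:**
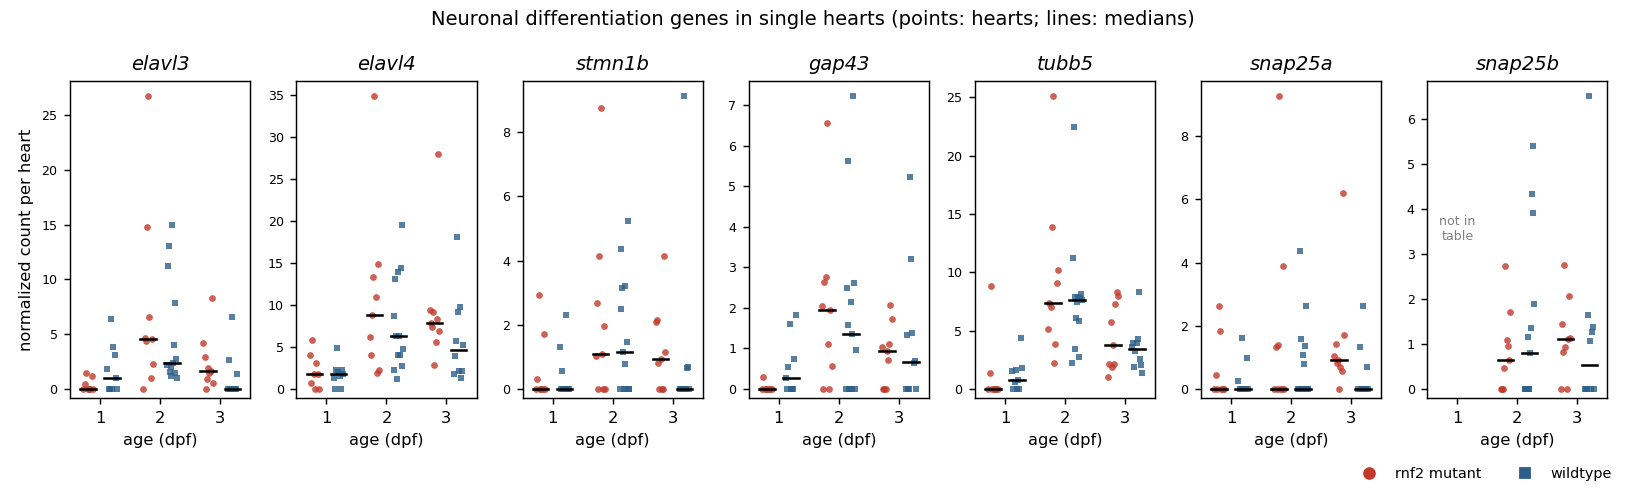
Normalized counts per heart of the 7 genes (y axes) at 1, 2 and 3 dpf (x axes), with mutant hearts (red circles) left of wildtype hearts (blue squares) and medians as black lines. The genotypes overlap for every gene and age; at 2 dpf the highest *elavl3* (26.8) and *elavl4* (34.96) values are those of mutant replicate 31.

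At 3 dpf the 3 genes with an unadjusted p under 0.05 were all higher in mutant hearts, as were 56.9% of all genes. *elavl3* had 0, 1.67 and 8.28 normalized counts in mutants and 0, 0 and 6.53 in wildtypes (log2 fold change 0.88 ± 0.39, SE, adjusted p = 0.15 in limma). It was found in 8 of 9 mutant and 3 of 10 wildtype hearts, from 25 and 8 UMIs. The depth of the genotypes differed in the same direction, and with every heart thinned to 27309 UMIs the medians over 20 draws were 5.5 of 9 mutant and 3 of 10 wildtype hearts.

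*elavl4* had 2.80, 7.89 and 27.96 normalized counts in mutants and 1.27, 4.62 and 18.1 in wildtypes, from 104 and 43 UMIs (log2 fold change 0.72 ± 0.31, SE, adjusted p = 0.13 in limma). The ranges overlapped, and only mutant replicate 43 lay above all wildtype hearts. *snap25a* had 0, 0.92 and 6.21 in mutants and 0, 0 and 2.61 in wildtypes, from 16 and 4 UMIs (0.71 ± 0.34, SE, adjusted p = 0.20 in limma). With thinning it was found in 4 of 9 mutant and 2 of 10 wildtype hearts, against 8 and 3 without. Over the other settings the adjusted p ranged from 0.035 to 0.43 for *elavl3*, 0.022 to 0.49 for *elavl4* and 0.079 to 0.44 for *snap25a*, always short of the 0.01 used for hearts.

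The other 4 genes had an unadjusted p above 0.05 at 3 dpf. *tubb5* had 1.04, 3.73 and 8.28 normalized counts in mutants and 1.32, 3.42 and 8.32 in wildtypes (log2 fold change 0.18, 95% confidence interval −0.47 to 0.82). *gap43* was at −0.10 (−0.80 to 0.61), *stmn1b* at 0.47 (−0.22 to 1.16) and *snap25b* at 0.20 (−0.52 to 0.92). Wildtype replicate 19 had the highest value of these 3 genes (5.22 for *gap43*, 9.14 for *stmn1b* and 6.53 for *snap25b*), and without it *gap43* was at 0.10, *stmn1b* at 0.79 and *snap25b* at 0.43. The decrease of *tubb5* in whole embryos (−0.90) thus lay outside its interval in hearts of the same age, in a different tissue, unit and normalization, and the difference itself was not tested.

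Whether the genotype difference changed with heart age was tested with an interaction of genotype and age. From 1 to 2 dpf the change in log2 fold change ran from 0.04 (*snap25a*) to 0.93 (*elavl3*, adjusted p = 0.81 in limma), and 0 of 6 genes were called where 0.0913% of 6573 genes were. From 2 to 3 dpf it ran from −0.26 (*gap43*) to 0.66 (*elavl3*, adjusted p = 0.70 in limma), and 0 of 7 were called where 1.25% of 10196 genes were. edgeR on the recovered UMIs also called 0 in both, and gave *elavl3* a change of 2.28 from 1 to 2 dpf (adjusted p = 0.43).

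The neural lists gave the same count in hearts. The pan-neuronal, axon, synaptic, proneural and progenitor lists held 29, 49 and 42 genes measured at 1, 2 and 3 dpf. Of these, 2, 8 and 5 had an unadjusted p under 0.05, again without a share of all genes. Higher in mutants were 12, 37 and 23, where 49%, 62.5% and 56.9% of all genes were higher. By limma 0 were called, where 0.0872%, 0.634% and 5.36% of all genes were. Of 13 relatives of the 7 genes, 4 fell in mutant hearts at 3 dpf, where 2.4% of all genes did. They were *stmn1a* (−1.73, means of 2.31 ± 1.69 in mutants and 9.37 ± 4.26 in wildtypes, SD), *tubb2b* (−1.43), *marcksl1b* (−1.28) and *marcksb* (−1.03). All 4 had also fallen in whole embryos. The relatives were better measured, with a median summed level of 132.7 in mutant and 211.7 in wildtype hearts of 3 dpf. The 14 pan-neuronal genes summed to 51.5 and 45.4, and the 6 release genes to 4.92 and 3.10. A difference in calls between these lists can therefore not be told apart from a difference in level. All lists were chosen with earlier results of these data known. Of 9 heart muscle genes 4 fell and 1 rose in hearts of this age. The largest decrease was that of *vmhc*, the ventricular myosin (−1.78), and *tnnt2a* rose (0.42). The part of heart muscle genes in the heart values above was not tested.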

How the data were processed

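Whole embryo reads were mapped by the authors to GRCz10 with STAR 2.5.2b, counted per gene by STAR (uniquely mapped reads only) and divided by DESeq2 size factors, and the deposited values are this signal, not raw counts. For its own test the study removed a batch effect with RUVSeq. Those factors are not part of the deposited values, so any batch effect remains in them. Hearts were counted as UMIs by the CEL-seq pipeline of the authors, filtered by total mRNA and divided by Monocle size factors. The study also left out genes expressed in too few samples of an age. UMI totals and shares of all genes given here for hearts cover only the genes with deposited values. The deposited heart values are a signal, recorded as a score for 3 hearts. Whole reads or UMIs were recovered in 73 of 73 libraries (tolerance 1e-04). With UMIs of 4 bases, a gene cannot exceed 256 in 1 heart.

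In R 4.3.3, limma 3.58.1 with a trend was fitted across all genes on log2(normalized count + 1), for whole embryos over genes with a mean of at least 5. Alternatives were edgeR 4.0.16, DESeq2 1.42.0, a surrogate variable (sva 3.50.0), other pseudocounts (0.5 and 5), scalings, filters and depths, and leaving out each sample. Scripts were tested on simulated data. Libraries of a group were taken as replicates because the labels number them. The p-values of limma set each difference against the spread between these samples within groups, moderated across all genes.

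The 7 genes and the lists were chosen with earlier results of these data known. Named besides these were, per list and direction, up to 3 called genes with the largest change, and the 5 genes most correlated with the mean profile of the 7. *vamp2*, other relatives and genes that did not pass were named after their values were seen. Of 30029 identifiers 27041 had a name. Peak lists were not used, since matching peaks to the genes needs an annotation of GRCz10, and no sequences were printed.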

Additional observations from a re-analysis of the deposited data

Results flagged for a closer look

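For each of the 7 genes, the highest and the lowest sample of each group of 4 to 10 samples was compared with the rest by Dixon's ratio, in 47 groups. A sample stood far from the others in 18 groups, and 17 of the 18 were high values of single hearts. Chance gives about 1 in 20 only where values follow a normal distribution. Where most hearts are at 0, as for *gap43* at 1 dpf, any value above 0 stands apart by construction, so the number of such groups carries no weight. In whole embryos, the *elavl3* value of mutant replicate 6 (755 normalized counts) was far below the other mutants.

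At 2 dpf, mutant heart replicate 31 stood above the other mutant hearts for *elavl4* (34.96), *gap43* (6.55), *snap25a* (9.29) and *stmn1b* (8.74 normalized counts). The 13 wildtype hearts of 2 dpf were above the group size used with Dixon's ratio and were not compared. Only mutant hearts could therefore be flagged at 2 dpf, and the flags do not show whether wildtype hearts of that age held such values. At 3 dpf, wildtype heart replicate 19 stood out for *elavl3* (6.53), *snap25a* (2.61), *snap25b* (6.53) and *stmn1b* (9.14), replicate 18 for *elavl4* (18.1) and replicate 21 for *tubb5* (8.32). Wildtype replicate 19 also ranked first of the 19 hearts of its age for the sums of the other pan-neuronal, synaptic release, proneural, neural progenitor and glial genes, but 16th for axon growth genes. Among mutant hearts of 3 dpf, replicate 43 stood out for *elavl3* (8.28), *elavl4* (27.96) and *snap25a* (6.21).

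At 1 dpf the values far from their group were those of *tubb5* in mutant replicate 3 (8.82) and wildtype replicate 9 (4.39), *gap43* in mutant replicate 2 (0.30) and *elavl4* in wildtype replicate 4 (4.81). No difference of the genotype effect between heart ages passed the test for any of the 7 genes.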

How the results depend on the processing

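In whole embryos the calls of *elavl3*, *elavl4*, *stmn1b*, *gap43* and *tubb5* held under all 27 alternatives, with adjusted p of at most 0.076, and 0 of the 7 genes passed beyond a log2 fold change of 1 under any. *snap25a* turned positive without wildtype replicate 4, mutant replicate 2 or mutant replicate 8 (range of all libraries left out −0.059 to 0.010). Genes beyond a log2 fold change of 1 numbered 434, but 701 with edgeR and 217 with a mean of at least 50. Replicate numbers 1, 2, 3 and 5 occur in both genotypes of whole embryos and 1 to 7 and 9 at 1 dpf, but same-numbered samples did not all deviate together (r from −0.13 to 0.03 in embryos, own number the best match for 1 of 4, and from −0.21 to 0.31 in hearts, own number the best match for 1 of 8), so that they are taken to share only a number, and none is shared at 2 and 3 dpf. With the replicate block 250 genes passed beyond a log2 fold change of 1, against 246 for the same libraries without it, a comparison chosen after seeing the data. Under the block *snap25b* passed (−0.24, adjusted p = 0.081 in limma), and the same 8 libraries without it gave −0.24 too (adjusted p = 0.21 in limma). Each number holds 1 library of each genotype, so by design the block cannot change the value, only its p. The equal values are therefore no test of where the shift comes from. Under the block 4 genes were called in hearts at 1 dpf. The list counts, also run under these settings after seeing the data, were 13 or 14 for pan-neuronal genes fallen. They moved for progenitor genes fallen (2, but 1 with a mean of at least 50 and 0 in the libraries with shared numbers with or without the block), relatives risen (3, but 1 with a mean of at least 50) and release genes risen (0, but 1 with a surrogate variable, with wildtypes 1 to 5, under the block and, with single libraries left out, 0 to 1).

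In hearts 0 of the 7 genes passed under any alternative. Over all genes, the 6 calls at 1 dpf were 1 with edgeR, 1 with DESeq2 and 0 with thinning, the 70 at 2 dpf were 32 with DESeq2, 18 with a covariate for how many genes each heart had above 0 and 3 with thinning, and the 601 at 3 dpf were 397 with that covariate and 195 with thinning. The covariate, under which the median log2 fold change of all genes at 2 dpf was −0.03, against 0.10 without it, turned *elavl3* (−0.63), *elavl4* (−0.29), *gap43* (−0.40), *stmn1b* (−0.60), *snap25a* (−0.58) and *tubb5* (−0.65) at 2 dpf and *snap25b* at 3 dpf (−0.10, edgeR −0.089, DESeq2 −0.16). At 1 dpf *stmn1b* turned with edgeR (−0.14) and *tubb5* with DESeq2 (0.13), and between 2 and 3 dpf the difference turned for *stmn1b* with edgeR (−0.34) and *tubb5* with a pseudocount of 5 (−0.0080). Leaving out single hearts gave ranges across 0 at 1 dpf for *elavl4* (−0.12 to 0.28), *stmn1b* (−0.14 to 0.24) and *snap25a* (−0.0079 to 0.32), at 2 dpf for *elavl3* (−0.071 to 0.53), *gap43* (−0.042 to 0.32), *stmn1b* (−0.11 to 0.30), *snap25a* (−0.077 to 0.38) and *tubb5* (−0.026 to 0.35), and at 3 dpf for *gap43* (−0.21 to 0.10). The causes were not tested. A few UMIs per heart limit the heart values, and a pseudocount of 1 understates their fold changes.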
